A study of Mus musculus with 6 samples.

Results

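The microRNAs described here come from 7 hairpins at the start of the large imprinted microRNA cluster between the genes Dlk1 and Dio3. They are miR-431, miR-433, miR-127, miR-434 and miR-136, whose hairpins lie antisense to the gene Rtl1, and miR-341 and miR-370, whose hairpins lie in introns of the long noncoding RNA Rian. They were chosen by name, both arms of each hairpin, which gave 14 of the 1028 mature microRNAs in the deposited count table. Small RNAs of a mouse epicardial cell line were sequenced, with 3 libraries from cells given a lentivirus with a guide RNA for CRISPR/Cas9 knockout of Hdac3 (KO) and 3 from cells given an empty-vector lentivirus (EV). Hdac3 encodes a histone deacetylase of repressor complexes, and the series asks which microRNAs respond to it in the epicardium, the outer cell layer of the heart. All 6 libraries come from that 1 cell line and all cells received a lentivirus, so neither group is untreated. The labels name the cells both as epicardial and as "MCEC", do not say whether KO cells were 1 clone or a pool, and give no word on whether each replicate was its own culture. The p-values therefore reflect the spread among these 6 libraries, which could be technical.

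A microRNA is cut from a hairpin in a longer transcript, and either side of the hairpin (the 5p or the 3p arm) can be kept to guide silencing of matching mRNAs. Targets are recognised mostly through the seed, bases 2 to 8 of the mature microRNA. In mouse the Dlk1-Dio3 cluster is expressed from the maternal chromosome, in one direction, as a chain of noncoding RNAs that starts with Meg3 and goes on through anti-Rtl1 and Rian to Mirg. Rtl1, a gene derived from a retrotransposon and needed for the placenta, is read from the paternal chromosome in the opposite direction, so the anti-Rtl1 microRNAs are fully complementary to its mRNA.

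On chromosome 12 of GRCm38, the build that the submitters' notes give as mm10, the 5 anti-Rtl1 hairpins lie on the plus strand within a coding exon of Rtl1, which is on the minus strand (109589193 to 109600330). They run from Mir431 (109590447 to 109590537) through Mir433 (109591715 to 109591838), Mir127 (109592846 to 109592915) and Mir434 (109594506 to 109594599) to Mir136 (109595327 to 109595388), with gaps of 727 to 1590 bp. A gap of 16111 bp separates Mir136 from Mir341 (109611500 to 109611595), and 6662 bp separate Mir341 from Mir370 (109618258 to 109618336). Both of these are on the plus strand within introns of Rian (109603940 to 109661716). RefSeq holds a mature sequence for all 14 members (GRCm38.p6), each found at 1 locus in its table, and their 14 seeds are all different. The more abundant arm of each hairpin is shown in the order of the locus, with the seed in capitals, because the levels and changes of these 7 carry most of the counts.
miR-431-5p: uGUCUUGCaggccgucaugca
miR-433-3p: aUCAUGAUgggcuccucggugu
miR-127-3p: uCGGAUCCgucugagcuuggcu
miR-434-5p: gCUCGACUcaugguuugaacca
miR-136-3p: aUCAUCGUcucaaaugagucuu
miR-341-3p: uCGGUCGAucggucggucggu
miR-370-3p: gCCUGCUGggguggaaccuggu
The hairpins of the 2 microRNAs with the largest well-measured changes are shown whole, with both mature arms in capitals (5p first, 3p second).
Mir370: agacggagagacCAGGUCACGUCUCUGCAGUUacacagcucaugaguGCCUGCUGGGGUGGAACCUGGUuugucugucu
Mir433: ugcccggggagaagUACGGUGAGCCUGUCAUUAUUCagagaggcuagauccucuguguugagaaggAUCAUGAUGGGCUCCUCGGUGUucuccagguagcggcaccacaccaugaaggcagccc
The mature members are 20 to 22 bases long. The arms of miR-136 are poorest in G and C, at 36.4% each, and miR-341-5p is richest, at 76.2%.

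The libraries held 12720548 to 13412774 counts in KO and 11824881 to 12806873 in EV. Levels are given as CPM, counts per 1000000 counts of the library after scaling by TMM, a factor per library computed over all microRNAs that pass the filter on low counts. The TMM factors were 0.920 to 0.986 in KO and 0.919 to 1.23 in EV, the highest in EV 1, where miR-21a-5p took the smallest share of the counts, at 63.0% against 66.7% to 70.1% elsewhere. One library of each group, KO 2 and EV 3, stood apart by the red blood cell marker miR-451a, with 62.7 and 54.7 CPM against 0.243 to 2.45 CPM in the other 4. Of the other red blood cell markers, miR-144-3p had 0 reads in KO 2 and EV 3. miR-486a-5p had 15.1 and 13.3 CPM there, against 5.68 to 9.25 CPM elsewhere. The neural marker miR-9-5p was also highest in KO 2 and EV 3, at 57.1 and 51.4 CPM against 11.3 to 32.6 CPM. So were 2 neural markers of few reads, miR-9-3p (0.798 and 0.982 CPM) and miR-124-3p (0.718 and 0.714 CPM). The remaining neural marker, miR-219a-5p, was lowest of all in KO 2, at 1.12 CPM, and highest in EV 3, at 2.50 CPM. What set these libraries apart was not tested. The Hdac3 mRNA is not measured by small-RNA libraries, so the knockout was not checked. No microRNA was used as a marker of epicardial cells. The endothelial markers miR-126a-3p and miR-126a-5p summed to 34.7 to 35.4 CPM in KO and 36.6 to 42.1 CPM in EV. Most of that sum was miR-126a-3p, with means of 31.8 CPM in KO and 35.8 CPM in EV. miR-126a-5p went the other way, with means of 3.15 CPM in KO and 2.81 CPM in EV. Neither difference passed the comparison described below.

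The 14 members covered a wide range of levels. Together they made up 0.338%, 0.359% and 0.390% of all counts in KO 1, KO 2 and KO 3, and 0.550%, 0.442% and 0.378% in EV 1, EV 2 and EV 3. On this scale EV 1 and EV 2 lay above the KO libraries and EV 3 lay within their range. After TMM scaling the sums were 3677, 3639 and 4128 CPM in KO 1, KO 2 and KO 3, and 4486, 4264 and 4113 CPM in EV 1, EV 2 and EV 3. KO 3 thus overlapped the EV range on this scale. The 10 anti-Rtl1 members held 3616 ± 246 CPM in KO and 4011 ± 138 CPM in EV, and the 4 Rian members 199 ± 27.5 CPM in KO and 277 ± 50.9 CPM in EV (SD, n = 3 each).

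miR-127-3p and miR-434-5p dominated the set, with 46.7% ± 3.82 and 31.0% ± 2.83 of its counts in KO, and 46.1% ± 1.13 and 30.7% ± 1.803 in EV (SD, n = 3 each). By mean level miR-127-3p stood at rank 31 and miR-434-5p at rank 38 of the 1028 microRNAs. Next came miR-136-3p (rank 75), miR-434-3p (95), miR-127-5p (105), miR-370-3p (111) and miR-341-3p (113). miR-433-3p, miR-431-5p and miR-136-5p had means between 10 and 100 CPM, and miR-431-3p, miR-433-5p, miR-341-5p and miR-370-5p means under 5 CPM. The 3p arm was the more abundant in 5 of the 7 hairpins, by 12.9 times in miR-127, 17.4 times in miR-136, 21.2 times in miR-433, 57.0 times in miR-341 and 113 times in miR-370 (geometric mean over 6 libraries). The 5p arm led in miR-431, by 8.20 times, and in miR-434, by 6.99 times. Ligation and size selection favour some small RNAs over others, so these differences between sequences are differences in counts and may differ from those in the cell.

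**Figure D1:**
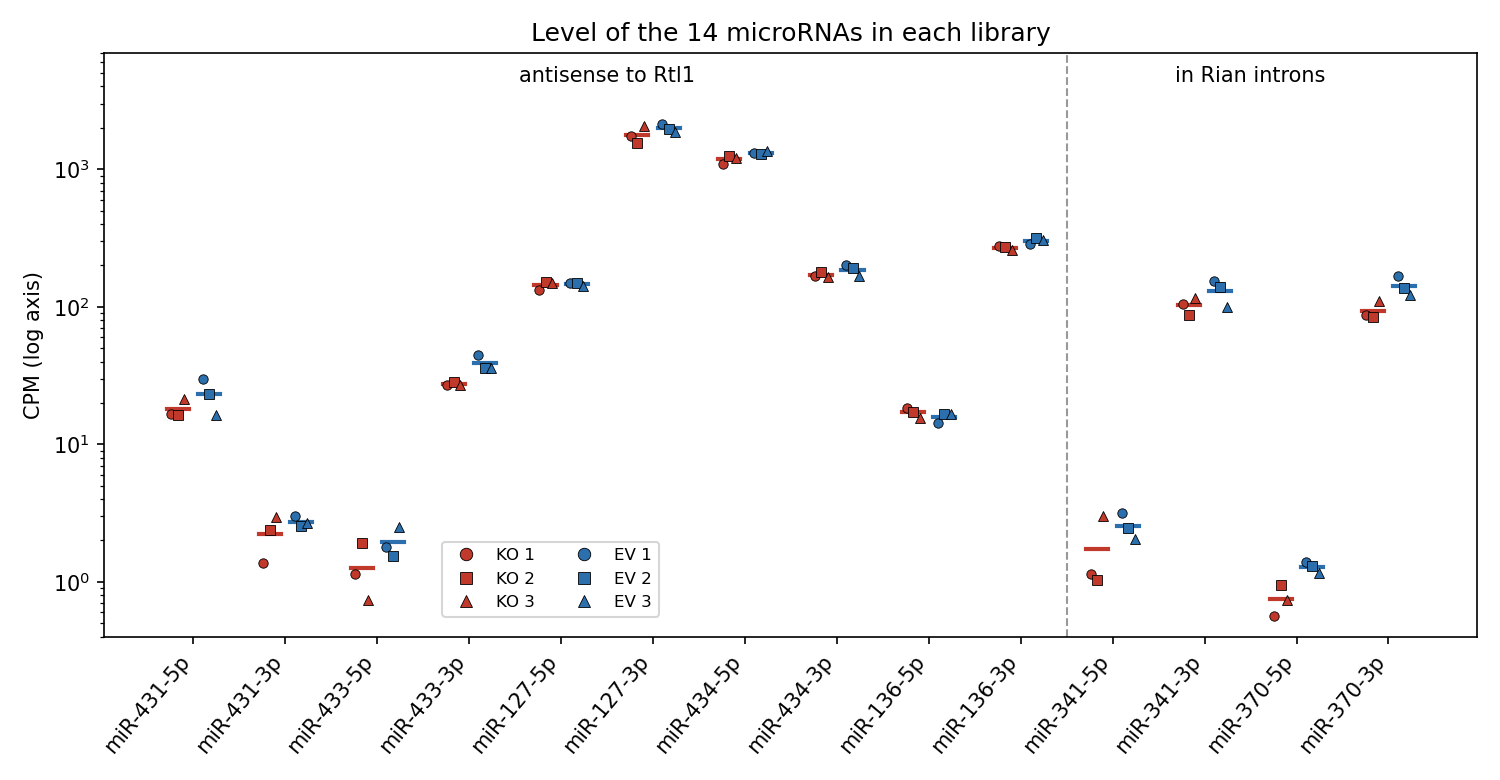
Level of each of the 14 microRNAs in CPM (log axis) in the order of the hairpins, with 1 point per library, KO left and EV right of each pair, and a bar at the group mean. The red KO points of miR-370-3p and miR-433-3p lie below all blue EV points, while those of miR-127-3p, the most abundant member, overlap them.

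KO was compared with EV across the whole table by edgeR's quasi-likelihood test, two-sided, with p-values adjusted by Benjamini-Hochberg over the 460 microRNAs that passed the filter. A microRNA with an adjusted p under 0.05 is described as called. All 14 members passed the filter, which asked for about 0.783 CPM (unscaled) in at least 3 libraries. miR-370-5p reached that level in 1 of 3 KO and 3 of 3 EV libraries, and miR-433-5p in 2 of 3 KO and 3 of 3 EV. Both miR-370-5p and miR-433-5p thus passed only through the EV libraries, where their means were higher.

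In the Rian introns, miR-370-3p fell in KO and was the only called member of the 14. Its level was 86.9 CPM in KO 1, 84.4 CPM in KO 2 and 109.8 CPM in KO 3, against 168 CPM in EV 1, 138 CPM in EV 2 and 122.1 CPM in EV 3. All 3 KO values lay below all 3 EV values, with KO 3 and EV 3 closest to each other. The means were 93.7 ± 14.01 CPM in KO and 143 ± 23.6 CPM in EV (SD, n = 3 each), a level 1.52-fold lower in KO (log2 change -0.61, SE 0.14, 95% interval -0.92 to -0.29, edgeR adjusted p = 0.0290). miR-370 is known, from human liver cells, to repress the fatty acid oxidation gene CPT1A. The call was lost in some fits with 1 library left out. Without KO 1 the log2 change was -0.55 (edgeR adjusted p = 0.143) and without KO 2 it was -0.53 (edgeR adjusted p = 0.0956). Without EV 1 it was -0.47 (edgeR adjusted p = 0.0918) and without EV 2 it was -0.67 (edgeR adjusted p = 0.116). Over all microRNAs these fits called 16, 15, 23 and 16, against 35 with all 6 libraries. Why the call was lost was not tested. Scaling by library size alone gave a larger change with a larger error, -0.79 (SE 0.21, edgeR adjusted p = 0.0926). Over the 19 alternatives the adjusted p of miR-370-3p ran from 4.20e-06, in the fit without a filter, to 0.143.

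The other arm of the hairpin, miR-370-5p, was near the floor of detection, with 7, 12 and 9 reads in KO 1, KO 2 and KO 3 and 22, 16 and 13 in EV 1, EV 2 and EV 3. The groups did not overlap in CPM, and the log2 change was -0.77 (SE 0.36, 95% interval -1.59 to 0.04, edgeR adjusted p = 0.239), which was not called. miR-341-3p had 105, 87.8 and 115 CPM in KO 1, KO 2 and KO 3, and 153, 139 and 99.0 CPM in EV 1, EV 2 and EV 3. EV 3 lay within the KO range, and the log2 change was -0.34 (SE 0.16, 95% interval -0.70 to 0.02, edgeR adjusted p = 0.239). Without EV 3 miR-341-3p was called, at -0.51 (SE 0.11, edgeR adjusted p = 0.0207), and without EV 1 it stood at -0.21 (SE 0.17, edgeR adjusted p = 0.546). Over the 19 alternatives its adjusted p ran from 0.0160 to 0.546. miR-341-5p was measured by 13 to 37 reads in KO and 23 to 50 in EV, with a log2 change of -0.58 (95% interval -1.47 to 0.31, edgeR adjusted p = 0.411). KO 3 held the 37 reads, and without KO 3 the change was -1.25 (SE 0.32, edgeR adjusted p = 0.0849). It was -0.35 without KO 1, -0.31 without KO 2 and -0.38 without EV 1.

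Among the anti-Rtl1 microRNAs none was called in this fit, and the value nearest to the threshold was that of miR-433-3p, which in fibroblasts of the heart is known to repress Azin1. Its levels were 27.0, 28.3 and 27.1 CPM in KO 1, KO 2 and KO 3, and 44.5, 36.1 and 35.7 CPM in EV 1, EV 2 and EV 3. The KO libraries lay close together and below all EV libraries, of which EV 1 was highest. The log2 change was -0.50 (SE 0.13, 95% interval -0.80 to -0.20, edgeR adjusted p = 0.0572). DESeq2 and limma-voom put miR-433-3p under the threshold (adjusted p = 0.00523 and adjusted p = 0.0285), as did edgeR with only microRNAs of at least 10 CPM (adjusted p = 0.0240), with 1 surrogate variable (adjusted p = 0.0183) and without EV 3 (adjusted p = 0.0313). Over the 19 alternatives its adjusted p ran from 0.00523 to 0.187 and its log2 change from -0.67 to -0.38.

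The first hairpin of the group, miR-431, which is known in mouse muscle stem cells to repress Pax7, had no called change. miR-431-5p had 16.6, 16.4 and 21.3 CPM in KO 1, KO 2 and KO 3, and 29.8, 23.3 and 16.3 CPM in EV 1, EV 2 and EV 3. EV 3 was the lowest of the 6 libraries and EV 1 the highest, and the log2 change was -0.36 (SE 0.22, 95% interval -0.85 to 0.13, edgeR adjusted p = 0.350). Without EV 1 it was -0.13 (SE 0.20, edgeR adjusted p = 0.755), without EV 3 it was -0.55 (SE 0.18, edgeR adjusted p = 0.0794), and with KO 2 and EV 3 left out together it was called at -0.48 (SE 0.17, edgeR adjusted p = 0.0456). The adjusted p of miR-431-5p over the 19 alternatives ran between the first and the last of these values. miR-431-3p and miR-433-5p, with 9 to 36 reads in KO and 19 to 47 in EV, had log2 changes of -0.29 (95% interval -0.90 to 0.32) and -0.61 (95% interval -1.44 to 0.23). Single libraries moved both: miR-431-3p stood at -0.04 without KO 1 and -0.54 without KO 3, and miR-433-5p at -1.03 without KO 2, -0.34 without KO 3 and -0.40 without EV 3, none of them called.

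The abundant arms of miR-127, miR-434 and miR-136 gave narrow intervals and small changes. miR-127-3p, which in the mouse placenta is known to direct cleavage of the Rtl1 mRNA, had 1745, 1546 and 2064 CPM in KO 1, KO 2 and KO 3, and 2121, 1963 and 1851 CPM in EV 1, EV 2 and EV 3. KO 3 lay between EV 1 and EV 2, so the groups overlapped, and the log2 change of -0.15 had a 95% interval of -0.39 to 0.09 (edgeR adjusted p = 0.443). The change of miR-127-3p was -0.05 without KO 2, -0.27 without KO 3 and -0.09 without EV 1, and it was not called in any of these fits. miR-434-5p had 1096, 1247 and 1197.2 CPM in KO 1, KO 2 and KO 3, and 1312, 1288 and 1346 CPM in EV 1, EV 2 and EV 3. Here the groups did not overlap, but the difference was small, at a log2 change of -0.16 (95% interval -0.31 to 0.00, edgeR adjusted p = 0.217). miR-127-5p and miR-434-3p stood at -0.01 (95% interval -0.20 to 0.17) and -0.13 (95% interval -0.33 to 0.06). For these 4 arms a fall as large as that of miR-370-3p lies outside the interval.

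miR-136-3p had 278, 274 and 257 CPM in KO 1, KO 2 and KO 3, and 286, 314 and 307 CPM in EV 1, EV 2 and EV 3. The groups did not overlap and the log2 change was -0.17 (SE 0.07, 95% interval -0.33 to -0.00, edgeR adjusted p = 0.209). Its other arm, miR-136-5p, was the only member with a value above 0, at 0.11 (95% interval -0.21 to 0.42), though not with library size alone. With that scaling the median of all microRNAs was -0.16 instead of -0.01, and miR-136-5p stood at -0.04, which is still 0.12 above that median. The hairpin Mir136 overlaps another annotated hairpin on the opposite strand, Mir3071 (109595318 to 109595397). The mature miR-136-3p and miR-3071-5p are complementary over 19 bases, shown in capitals.
miR-136-3p: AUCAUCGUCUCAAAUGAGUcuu
miR-3071-5p: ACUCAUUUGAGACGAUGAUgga
Their counts were nearly the same in every library: the ratio of miR-136-3p to miR-3071-5p lay between 1.009 and 1.013 in KO and between 1.011 and 1.013 in EV. The sources used here do not say whether counting used the strand, so the 2 names cannot be told apart in these files, and the count of miR-136-3p is uncertain for that reason. For the other arms the ratio of miR-136-5p to miR-3071-3p was 0.419 to 0.451 in KO and 0.351 to 0.410 in EV.

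**Figure D2:**
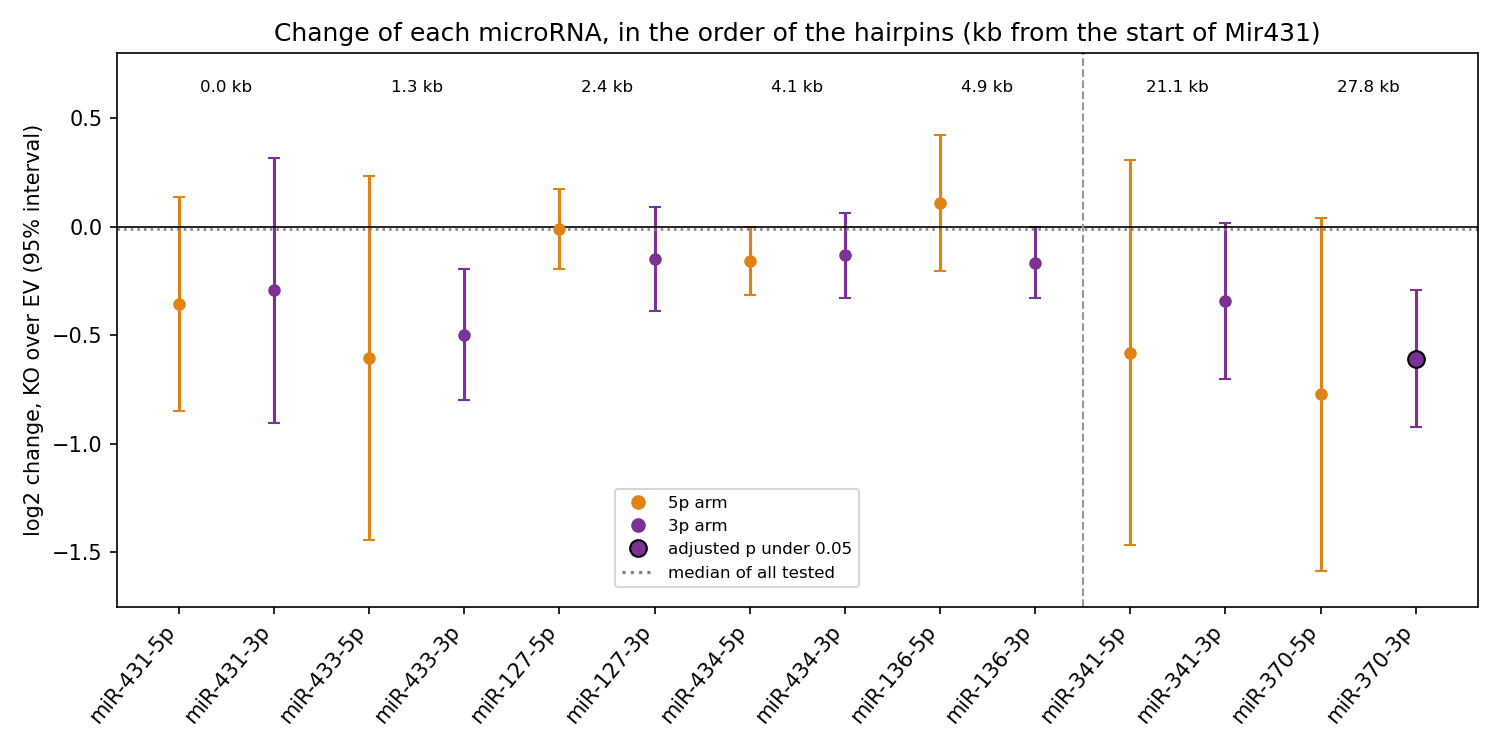
Log2 change of KO over EV with its 95% interval (edgeR) for each arm, in the order of the hairpins, whose distance from the start of Mir431 is printed above them. The dashed line separates the anti-Rtl1 from the Rian hairpins, miR-370-3p is the 1 called member, and 13 of the 14 points lie below 0 (14 with library size alone).

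Counted together, 13 of the 14 members had log2 changes below 0 (14 with library size alone), where 51.7% of all tested microRNAs did, and their median was -0.32 beside -0.01 for all tested. These counts include arms of few reads, among them miR-370-5p and miR-433-5p, which passed the filter only through the EV libraries. Arms of 1 hairpin are also not independent. Of the 10 members with a mean of at least 10 CPM over the 6 libraries, a split made after the values were seen, 9 had changes below 0 (10 with library size alone), beside 51.4% of the 249 tested microRNAs at that level, and their median was -0.16 beside -0.01. Among them the 8 anti-Rtl1 members had a median of -0.15, and the 2 Rian members, miR-370-3p and miR-341-3p, stood at -0.61 and -0.34. Being lower in KO and called applied to 1 of 14 members and to 2.61% of all tested microRNAs, and 7.61% were called in either direction. In 4 of the 10 members with a mean of at least 10 CPM, miR-433-3p, miR-434-5p, miR-136-3p and miR-370-3p, all 3 KO values lay below all 3 EV values, as they did for 18.1% of the 249 microRNAs at that level. An unadjusted edgeR p under 0.05 with a lower level in KO was found for 3 members, miR-370-3p, miR-433-3p and miR-136-3p, and for 10.4% of all tested. These 3 are among the 10 members with a mean of at least 10 CPM. At that level 76 of the 249 microRNAs had an unadjusted edgeR p under 0.05 in either direction. DESeq2 and limma-voom each called 2 members, miR-370-3p and miR-433-3p, both lower in KO. DESeq2 gave an adjusted p to 298 microRNAs, of which 7.05% were called as lower, and none to the 4 members miR-341-5p, miR-370-5p, miR-431-3p and miR-433-5p. Limma-voom called 3.26% of all 460 as lower. The authors' deposited table lists 4 members, all lower in KO, and 3.50% of the microRNAs in the count table as lower. That share is over all 1028 microRNAs, of which 460 passed the filter used here. It is therefore not matched to the members, all of which passed. In the authors' deposited table the log2 changes are -0.60 for miR-370-3p, -0.51 for miR-433-3p, -0.18 for miR-136-3p and -0.17 for miR-434-5p, with adjusted p-values of 0.00352, 8.67e-04, 0.0198 and 0.0412.

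EV 1 was the highest of the 6 libraries for 9 of the 14 members, where it was the highest for 19.6% of all tested microRNAs. It is also the library with the highest TMM factor and the lowest share of miR-21a-5p. Without EV 1 the median of the members was -0.20 (0.00 for all tested) and no member was called. The epithelial markers, miR-200a-3p, miR-200b-3p, miR-200c-3p, miR-141-3p and miR-429-3p, moved with the groups as well, with sums of 25.3 to 27.3 CPM in KO and 41.4 to 50.03 CPM in EV, 2 of the 4 tested being called. The 4 neural markers, of which 2 passed the filter, summed to 16.95 to 59.7 CPM in KO and 13.2 to 55.6 CPM in EV. The muscle markers miR-1a-3p, miR-133a-3p and miR-206-3p summed to 20.9 to 24.9 CPM in KO and 26.2 to 27.2 CPM in EV, with 0 called, miR-206-3p at -0.35 (edgeR adjusted p = 0.169) and miR-1a-3p at 1.06 (edgeR adjusted p = 0.0657). The part of these differences in the members' values was not tested.

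A measure that needs no scaling between libraries is the share of each member in the summed counts of all 14. miR-370-3p made up 2.36%, 2.32% and 2.66% in KO 1, KO 2 and KO 3, and 3.76%, 3.23% and 2.97% in EV 1, EV 2 and EV 3. miR-433-3p made up 0.734%, 0.778% and 0.657% in KO 1, KO 2 and KO 3, and 0.992%, 0.846% and 0.868% in EV 1, EV 2 and EV 3. In both the KO libraries lay below all EV libraries. The share of miR-370-5p was also lower in KO without overlap, but it rests on 7 to 12 reads in KO and 13 to 22 in EV. As miR-370-5p passed the filter only through the EV libraries, its share is not taken as support for a fall. The share of miR-127-5p was higher in KO without overlap, at 3.802% ± 0.340 in KO and 3.41% ± 0.0853 in EV (SD, n = 3 each). Each of these 4 shares gave p = 0.10 in a two-sided exact permutation test, the smallest that 3 against 3 libraries allow, and p = 0.35 after Benjamini-Hochberg adjustment over the 14 shares, so none passed and none could have. The share of miR-127-3p overlapped between the groups. The 4 Rian members together took 5.28%, 4.79% and 5.54% in KO 1, KO 2 and KO 3, and 7.27%, 6.57% and 5.45% in EV 1, EV 2 and EV 3, where EV 3 fell within the KO range.

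**Figure D3:**
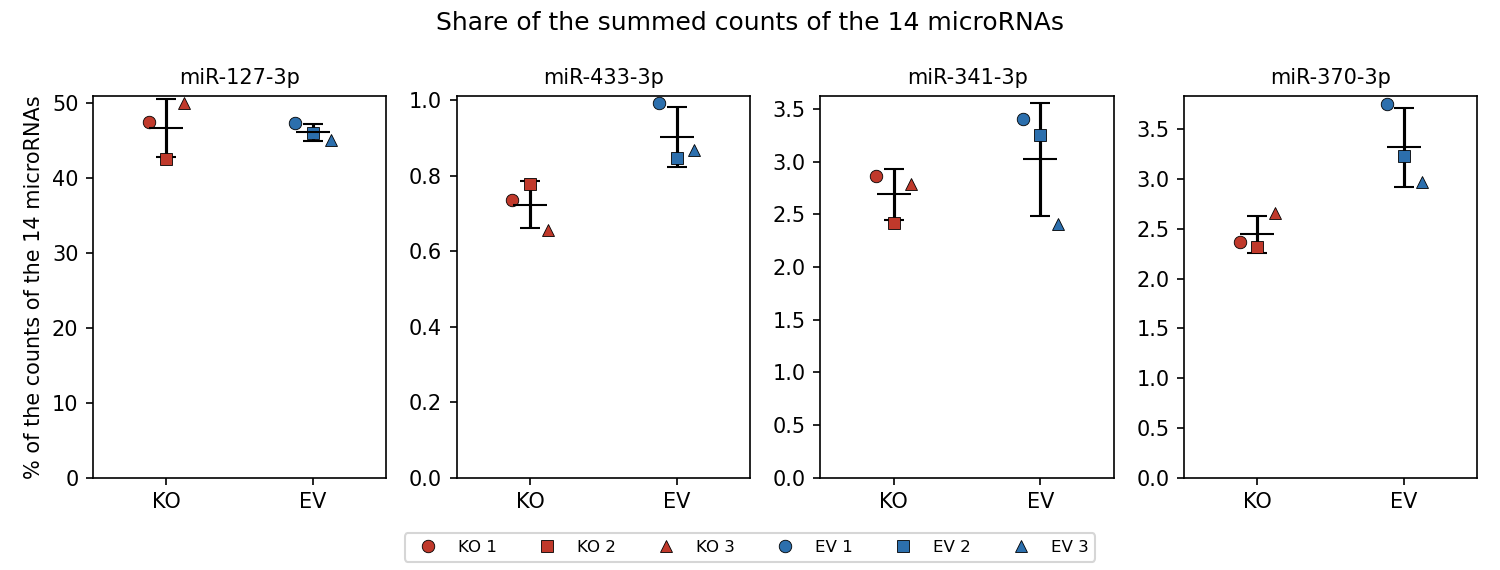
Share of 4 microRNAs in the summed counts of the 14 members (percent, each axis from 0), with 1 point per library and the mean ± SD per group, KO left of EV. The shares of miR-433-3p and miR-370-3p do not overlap between the groups, while those of miR-127-3p and miR-341-3p do.

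Whether the arms of a hairpin changed unequally was tested on the log2 ratio of the 3p to the 5p count with limma, across all hairpins with both arms tested, where 0 (0% of hairpins) had an adjusted p under 0.05 and 9 an unadjusted p under 0.05. The 7 member hairpins had changes of that ratio between -0.27 and 0.38 in log2. The largest relative to its error was miR-136, whose 3p arm was 15, 16.01 and 16.4 times as abundant as the 5p arm in KO 1, KO 2 and KO 3, and 19.9, 19.0 and 18.4 times in EV 1, EV 2 and EV 3. Its change of -0.27 (SE 0.13, 95% interval -0.56 to 0.02, limma adjusted p = 0.692) did not pass, although the groups did not overlap, and it contains the counts that cannot be told apart from miR-3071. For miR-434, with both arms abundant, the interval of the change was -0.24 to 0.30, and for miR-370 it was -0.44 to 0.76.

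**Figure D4:**
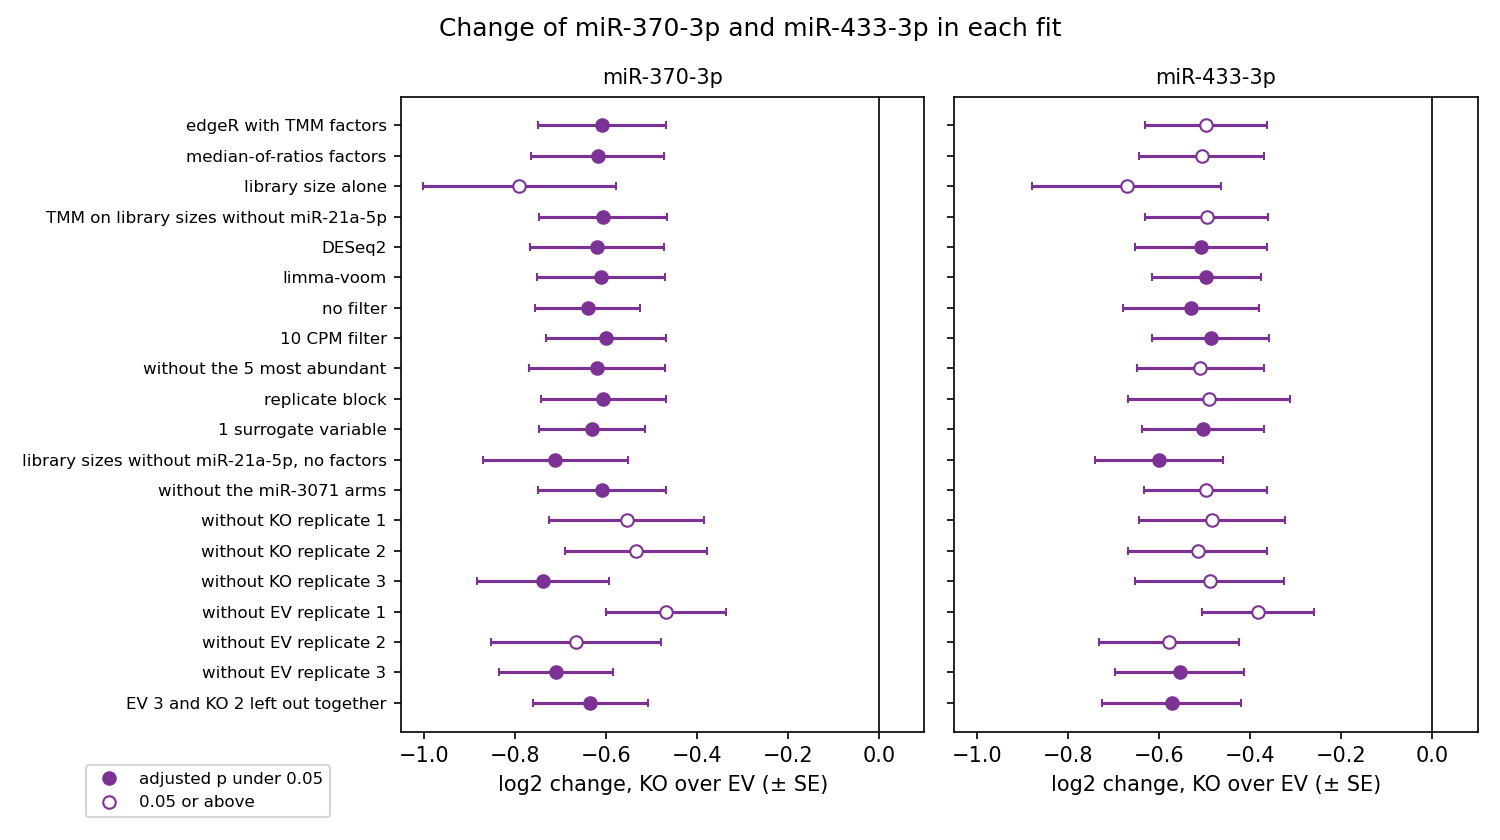
Log2 change of KO over EV (± SE) of miR-370-3p and miR-433-3p in the edgeR fit and in 19 alternatives, filled where the adjusted p was under 0.05. All values lie below 0, and miR-370-3p kept its call in 14 of the 19 alternatives and miR-433-3p was called in 8.

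The other microRNAs of the Dlk1-Dio3 cluster, listed by name, leaned the same way. Upstream, from Meg3 to Rtl1, and in the hairpins next to the members, 12 of 17 listed names were tested. All 12 had log2 changes below 0 (median -0.20), and 0 were called by edgeR, DESeq2 or limma-voom. There was 1 unadjusted edgeR p under 0.05, that of miR-3071-5p, whose counts cannot be told apart from those of the member miR-136-3p. The log2 changes ran from -0.03 for miR-540-5p to -0.41 (SE 0.49) for miR-337-3p. The hairpin of miR-337 overlaps the antisense Mir3544, so the counts of both its arms are uncertain. miR-337-5p, the most abundant microRNA of this list that does not overlap a member, stood at -0.26 (SE 0.12). The others were miR-493-3p at -0.37, miR-665-3p at -0.35, miR-770-3p at -0.34, miR-540-3p at -0.22, miR-673-3p at -0.18, miR-3071-5p at -0.16, miR-3071-3p at -0.10, miR-493-5p at -0.10 and miR-673-5p at -0.08. Downstream, the list for the Mirg region was made by name and also holds microRNAs that lie before the start of Mirg. Of its 71 names 54 were tested, and 47 of them had changes below 0, where 51.7% of all tested microRNAs did. EdgeR called 1 of the 54, miR-409-3p (log2 change -0.52, SE 0.10, edgeR adjusted p = 0.0130), and 2.61% of all tested as lower. DESeq2 gave an adjusted p to 37 of the 54 and called 7 of these, all lower in KO, beside 7.05% of 298 over the whole table. Limma-voom called 2 of the 54, miR-409-3p and miR-543-3p, both lower in KO, beside 3.26% of all tested. An unadjusted edgeR p under 0.05 with a lower level in KO was found for 17 of the 54, beside 10.4% of all tested. In 20 of the 54 all 3 KO values lay below all 3 EV values, as they did for 13.9% of all tested. The median log2 change of the 54 was -0.24. Of the microRNAs with a mean of at least 10 CPM, the 4 upstream or next to the members had a median of -0.19. These 4 include both arms of miR-3071, whose hairpin overlaps the member hairpin Mir136. The 32 on the Mirg-region list had a median of -0.24. In 16 of these 32 the KO values lay below all EV values, as they did for 18.1% of the 249 microRNAs at that level. Whether the members differ from these lists was not tested.

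Of the 446 other tested microRNAs, the 5 whose centred log2 levels across the 6 libraries were closest to the summed members were miR-214-5p, a predicted microRNA without a miRBase name, miR-380-5p, miR-423-3p and miR-214-3p. Their root mean square differences were 0.0605, 0.0621, 0.0671, 0.0692 and 0.0748 in log2 units, against a median of 0.227 over all 446, and the members' own profile varied by 0.109 around its mean. Of the 5, miR-380-5p alone is in the Dlk1-Dio3 lists. The members' profile rests mainly on miR-127-3p and miR-434-5p, and a flat microRNA also comes close to it. Only 1 other microRNA in the count table with a RefSeq sequence shares a seed with a member. It is miR-1193-3p, on the Mirg-region list but at 109715750 to 109715770, before the start of Mirg (109729764). Its seed is that of miR-370-5p, as shown in capitals.
miR-370-5p: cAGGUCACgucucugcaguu
miR-1193-3p: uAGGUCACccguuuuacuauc
miR-1193-3p had 11.1, 10.05 and 11.96 CPM in KO 1, KO 2 and KO 3, and 12.2, 12.3 and 14.2 CPM in EV 1, EV 2 and EV 3. The groups did not overlap, and miR-1193-3p was not called, with -0.22 in log2 (SE 0.14, edgeR adjusted p = 0.380).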

How the data were processed

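Small-RNA libraries were made with a NEBNext kit from Trizol-extracted RNA, per the labels' protocols. The deposited read counts, whole numbers per mature microRNA, were used. Per the submitters' processing notes, Bowtie, mm10 and DESeq 1.8.3 were used. The sources used here do not state how reads matching several names were counted. The authors' deposited TPM values equal counts scaled to a total of 1000000 (largest difference 3.49e-10) and were left untested. A comparison table deposited by the authors holds 78 microRNAs with mean normalized counts (a signal per group), log2 fold changes and p-values. PCR copies were counted as reads.

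From the counts, KO and EV were compared in edgeR 4.0.16 (R 4.3.3) with TMM factors, filterByExpr (minimum count 10, minimum total 15) and the quasi-likelihood test, and arm ratios by limma 3.58.1 (pseudocount 0.5). Alternatives used DESeq2 1.42.0, limma-voom and sva 3.50.0. Fits were tested on simulated data. Named were all members, all tested neighbours upstream or next to the members, called Mirg-region microRNAs, the 5 closest in pattern and any sharing a seed. Places are from GENCODE M21 and RefSeq, sequences from RefSeq. No pair of libraries within a group agreed within counting noise (smallest chi-square 9040 on 459 degrees of freedom). The members, lists and tests were chosen with earlier results of these data known.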

Additional observations from a re-analysis of the deposited data

How the results depend on the processing

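Alternatives were compared with edgeR on TMM factors, which called 35 microRNAs, 1 of them a member. Over all microRNAs the count was 5 with library size alone (1 higher and 4 lower), 56 without a filter, 88 with KO 2 and EV 3 left out together, and 15 to 59 with 1 library left out. Among members it was 0 with library size alone, 2 with DESeq2, limma-voom or the 10 CPM filter, 3 without a filter or with 1 surrogate variable, and 4 with KO 2 and EV 3 left out. It was also 4 (miR-136-3p, miR-370-3p, miR-433-3p and miR-434-5p) on library sizes without miR-21a-5p, an alternative chosen after seeing the data, as was leaving out the miR-3071 arms (1 member called). With 1 library left out it was 0 to 3: 0 without KO 1, KO 2, EV 1 or EV 2, 1 without KO 3 and 3 without EV 3. Library size alone and library sizes without miR-21a-5p moved the median of all microRNAs to -0.16 and -0.11, and the members' median lay 0.33 and 0.31 below it, against 0.31 with TMM factors. Across the 19 alternatives, 12 members kept their sign in each fit that tested them, and miR-127-5p and miR-136-5p did not. With 1 library left out miR-127-5p ran from -0.048 to 0.049, above 0 without KO 1 and without EV 1 (0.0030), and miR-136-5p stood at -0.040 with library size alone.

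No arm ratio was called, except 3 (none of them a member) with KO 2 and EV 3 left out. Log2 arm ratio changes turned sign for miR-370 with a pseudocount of 5 (-0.054), and for miR-431 with that pseudocount (0.029) and without KO 2 and EV 3 (0.047). With 1 library left out miR-431 ran from -0.17 to 0.23, above 0 without KO 1 or EV 3, and miR-433 from -0.12 to 0.51, below 0 without KO 3 or EV 3. miR-434 ran from -0.059 to 0.082, below 0 without KO 1 or EV 3, and stood at -0.057 without KO 2 and EV 3. Why these values moved was not tested. The labels do not say that replicate numbers pair the libraries. Deviations from the group means correlated at 0.30, -0.04 and -0.22 between KO and EV libraries with the same number. Between libraries with different numbers they correlated at -0.49 to 0.43. With 3 libraries per group these values cannot decide whether libraries with the same number shared a culture or preparation. With a replicate block 34 microRNAs and 1 member were called, miR-370-3p at -0.61 (edgeR adjusted p = 0.00505) and miR-433-3p at -0.49 (edgeR adjusted p = 0.0950).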
